A study of Mus musculus with 2 samples.

Results

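Guidance genes of the ephrin, semaphorin, plexin, Slit, Robo, netrin and Unc5 families were examined in CD45-negative cells of mouse mammary tumours. The members were the rows whose gene symbol begins with Epha, Ephb, Efna, Efnb, Sema or Plxn followed by the letter or number of a family member, or with Robo, Slit, Ntn or Unc5. This took 48 of 12707 listed genes by name alone. One match, Unc50, shares the letters but is not a netrin receptor; it was kept in every count because the rule finds it, and it is named where it matters.

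These families were first described as cues that steer growing axons, and they also shape vessels, epithelia and tumours. Ephrins are membrane-bound ligands of Eph receptor tyrosine kinases, so both sides of a cell contact can signal. Semaphorins act through plexins, which switch small GTPases in the cell, and the secreted class 3 semaphorins mostly need a neuropilin as coreceptor. Slits bind Robo receptors, and netrins bind Dcc, neogenin and the Unc5 receptors.

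The cells came from Py8119 tumours, a mesenchymal mouse mammary line of MMTV-PyMT origin, grown in hosts that were Mtdh wild type (WT) or Mtdh knock out (KO). The injected tumour cells were wild type for Mtdh in both groups, so the groups differ in the host. Live CD45-negative cells were sorted, which can leave tumour cells together with host fibroblasts, vessel cells and others. There was 1 library per host genotype, called here the WT-host and the KO-host library, and the labels do not say how many mice went into each. The design text speaks of paired samples without saying how they were paired. No label states the time of harvest, the age of the mice or how the host knockout was made. With 1 library a group there is no replicate and no test, and every difference below describes this pair of libraries.

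The authors deposited log2(FPKM + 1), where FPKM scales fragments by gene length and library size. Its length is that of the whole gene, introns included, and guidance genes are long. Their median span was 39.9 kilobases against 24.3 over all listed genes, and 26 of the 48 members were under FPKM 1 in both libraries, where the added 1 hides ratios. Differences are therefore given mainly as ratios of recovered reads scaled to library size (RPM), with totals of 26069379 reads in the WT-host and 23381875 in the KO-host library. Each ratio carries a 95% counting interval (exact conditional binomial), which covers counting error only. Levels of different genes are compared as RPM per kilobase of exon. The call limits were a KO-host over WT-host ratio of 2 or more (higher) and of 0.5 or less (lower), applied to genes above 0 in both libraries with 100 reads or more in sum.

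Mtdh itself had 28376 and 23131 reads in the WT-host and KO-host libraries, a ratio of 0.909 (counting interval 0.893 to 0.925). The tumour cells carry the gene in both groups, so this level does not check the host label. Ratios spread widely among low genes. Of all listed genes with 100 to 299 reads, 26.2% were 2-fold higher and 30% were 2-fold lower, and the middle 50% of their log2 ratios ran from -1.24 to 1.07. Among genes with 3000 reads or more, the shares were 1.85% and 1.16% and the middle 50% ran from -0.25 to 0.20. A member's ratio is therefore read beside the share for genes of similar read number.

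Most guidance genes stood at similar levels in both libraries, and the members past 2-fold all had under 3000 reads. In such mixed cells, fewer cells of a type and less RNA per cell cannot be told apart. Of the 48 members, 39 met the read filter. Of these, 3 were higher (Sema3f, Sema4a and Sema6a), where 8.49% of 10675 listed genes were, and 4 were lower (Sema3b, Sema4g, Epha4 and Unc5c), where 11.4% of listed genes were. The other 32 lay between, with ratios from 0.5003 to 1.88. The lowest of these was Ephb6, just outside the 2-fold limit. The median log2 ratio was -0.09 over the 39 members and -0.06 over all listed genes counted the same way, so the members as a set sat close to the background. All 4 lower members had 100 to 299 reads, a range that held 8 members in all, where 26.2% of listed genes were higher and 30% lower. Sema4a was the only one called of the 8 members with 300 to 999 reads, where 12.9% of listed genes were higher and 19.9% lower. Both Sema3f and Sema6a had 1000 to 2999 reads, a range of 9 members, where 4.05% of listed genes were higher and 7.26% lower. None of the 14 members with 3000 reads or more passed 2-fold, and their ratios ran from 0.599 to 1.72.

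**Figure D1:**
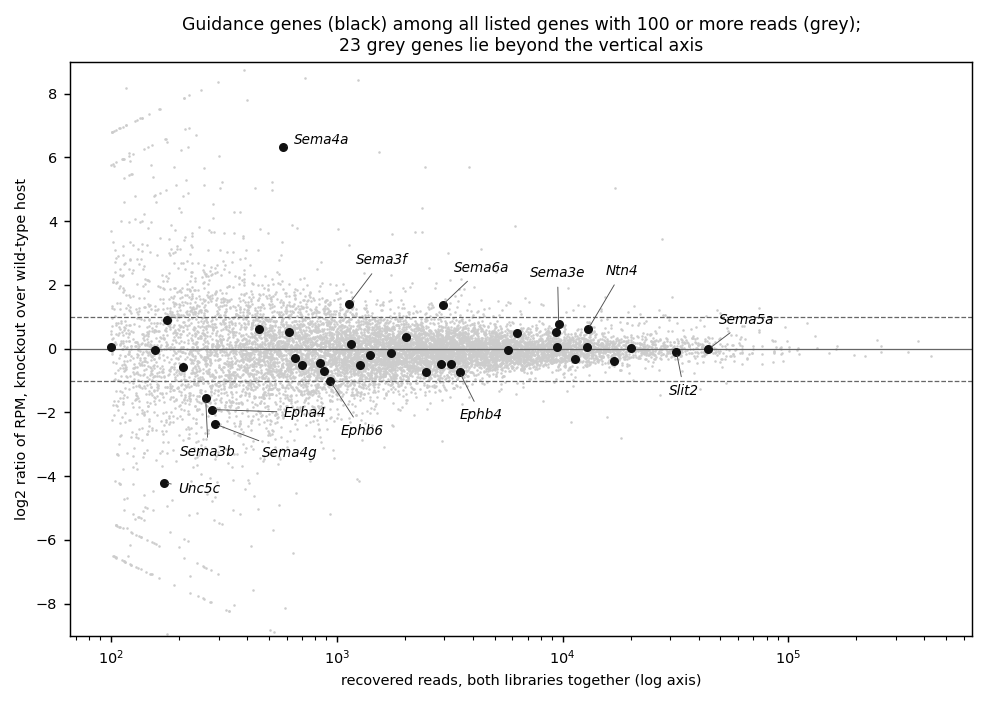
Log2 ratio of RPM (KO-host over WT-host library) against recovered reads of both libraries on a log axis, for all listed genes with 100 or more reads (grey) and the 39 counted members (black); dashed lines mark 2-fold, and 23 grey genes lie beyond the vertical axis. The grey cloud narrows from left to right, and the 14 members with 3000 or more reads all lie inside the dashed lines.

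On the deposited log2(FPKM + 1) scale, 20 members had a mean of 1 or more. On that scale 0 of them were higher by 1 or more and 0 were lower, where 2.31% and 2.64% of 6057 listed genes were. Their median difference was -0.13. Sema4a, Sema3f, Sema6a and the 4 lower members all had a mean under 1 and so did not enter that count.

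Per kilobase of exon, netrins, a plexin and a semaphorin led the members. Ntn1, the founding netrin, was at 60.9 RPM per kilobase in the WT-host and 46.8 in the KO-host library. Ntn4, a laminin-related netrin of basement membranes, was at 56.2 and 85.6. The 2 netrins thus exchanged order, with Ntn1 ahead in the WT-host library and Ntn4 ahead in the KO-host library. Plxnb2 followed at 52.1 and 52.8, and Sema5a at 48.2 and 47.6. Next came Efnb2 at 37.4 and 38.6, Unc5b at 40.2 and 32.4, Slit2 at 26.1 and 24.5 and Epha2 at 24.9 and 24.5. This order depends on the length used. On the deposited FPKM, which divides by the whole gene, Plxnb2 led at 15.9 in the WT-host and 16.1 in the KO-host library. There Efnb2 (5.85 and 6.05) and Epha2 (4.14 and 4.07) stood above Ntn1 (1.995 and 1.53), Ntn4 (1.97 and 3.01) and Sema5a (1.99 and 1.97).

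**Figure D2:**
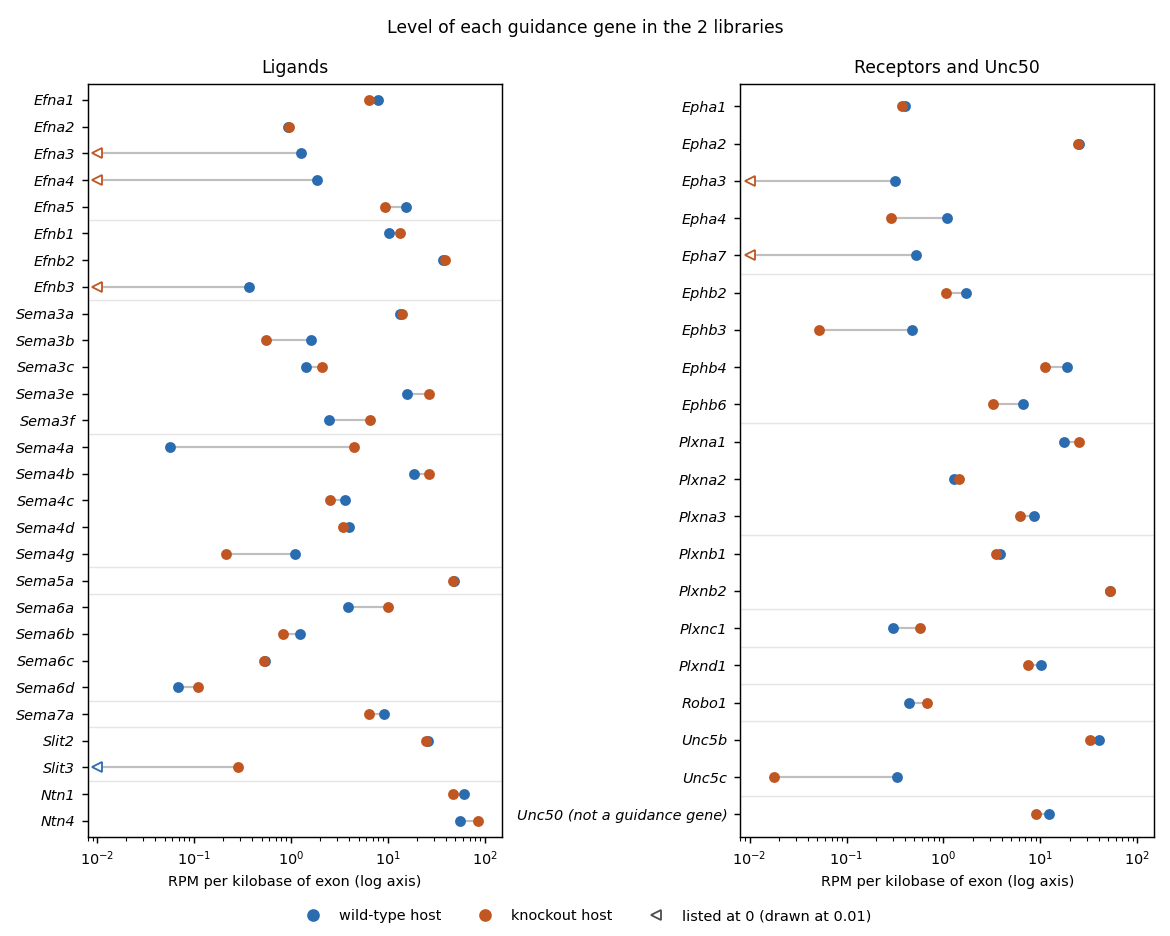
Level of each of the 48 members in RPM per kilobase of exon on a log axis, ligands on the left and receptors (with Unc50) on the right, in the WT-host library (blue) and the KO-host library (orange); an open triangle at 0.01 marks a gene listed at 0. Points of Plxnb2 (52.1 and 52.8) and Sema5a (48.2 and 47.6) nearly coincide. Those of Ntn1 (60.9 and 46.8) and Ntn4 (56.2 and 85.6) stand apart, and those of Sema4a and Unc5c lie far apart.

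Sema4a had the widest ratio of the members. The gene lies on chromosome 3 of mm39 (88343266 to 88368490, minus strand) and encodes a membrane semaphorin that binds plexins and is known for costimulating T cells. It had 8 reads in the WT-host library and 573 in the KO-host library, or 0.307 and 24.5 RPM, a ratio of 79.9 (40.3 to 186). Of the 782 listed genes with at least 500 and under 700 reads, only Sema4a itself had a log2 ratio that high, and over all 10675 counted genes 49 did, itself included. The deposited log2 values were 0.02 and 0.98. Other class 4 semaphorins did not share this difference. Sema4b, the most abundant of the class, had 2767 and 3515 reads, a ratio of 1.42 (1.35 to 1.49). Sema4d, the ligand of plexin B1, had 792 and 615 reads (ratio 0.866), and Sema4c, a ligand of plexin B2, had 430 and 273 (ratio 0.708). Sema4g (chromosome 19, 44977540 to 44991837, plus strand) had 247 reads in the WT-host and 43 in the KO-host library and was 5.15-fold lower (3.71 to 7.30). Within this class the 2 called members therefore lay on opposite sides.

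Of the 5 class 3 semaphorins, the secreted ones, 1 was higher, 1 lower and 3 between, beside 8.49% of listed genes higher and 11.4% lower. Sema3f, which acts through neuropilin 2 and repels endothelial and tumour cells in model systems, had 336 and 797 reads, 12.9 and 34.1 RPM, a ratio of 2.64 (2.33 to 3.01). Sema3e, which binds plexin D1 without a neuropilin, had 3785 and 5828 reads, a ratio of 1.72 (1.65 to 1.79). That did not reach 2-fold, and 116 of the 3624 listed genes with 3000 reads or more had a ratio as high. Sema3c had 269 and 347 reads (ratio 1.44), and Sema3a, the classical ligand of neuropilin 1, had 4891 and 4572 (ratio 1.04, 1.001 to 1.09). Sema3b had 201 and 62 reads and was 2.91-fold lower (2.18 to 3.93), in the range of 100 to 299 reads where 30% of listed genes were 2-fold lower. Sema3b and Sema3f lie near each other on chromosome 9 of mm39 (107474873 to 107486429 and 107558699 to 107587675, both on the minus strand), 72.3 kilobases apart, and they differed in opposite directions.

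The remaining semaphorins are membrane proteins. Sema6a, which binds class A plexins, had 884 and 2066 reads, 33.9 and 88.4 RPM, a ratio of 2.61 (2.41 to 2.82). Sema6b had 130 and 78 reads and Sema6c 84 and 73, both short of 2-fold, and Sema6d had 19 and 27, under the read filter. Sema5a, a semaphorin with thrombospondin repeats, held more reads than any other member, 23461 and 20787, and had a ratio of 0.988 (0.970 to 1.01). Sema7a, which is anchored in the membrane by a lipid and binds plexin C1 and integrin beta 1, had 781 and 492 reads (ratio 0.702).

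For 4 called members with an entry in the RefSeq promoter table (build GRCm38.p6), the 250 bases before the start are shown, which gives the start of Sema4a and of 3 of the 4 lower members. Sema3b, Sema3f and Sema6a are not shown, so higher and lower members are not compared. Sema4a lies at chr3:88461183-88461432 (minus strand), Sema4g at chr19:44989094-44989343 (plus), Epha4 at chr1:77515089-77515338 (minus) and Unc5c at chr3:141465314-141465563 (plus). Sequences run 5′ to 3′ and end at the base before the start. Capitals mark matches on either strand to the GC box (GGGCGG), a binding pattern of Sp factors.
Sema4a: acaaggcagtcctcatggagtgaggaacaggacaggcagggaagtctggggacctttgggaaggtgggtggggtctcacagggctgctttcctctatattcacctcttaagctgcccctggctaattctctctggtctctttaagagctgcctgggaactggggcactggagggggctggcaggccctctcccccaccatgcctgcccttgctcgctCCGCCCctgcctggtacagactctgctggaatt
Sema4g: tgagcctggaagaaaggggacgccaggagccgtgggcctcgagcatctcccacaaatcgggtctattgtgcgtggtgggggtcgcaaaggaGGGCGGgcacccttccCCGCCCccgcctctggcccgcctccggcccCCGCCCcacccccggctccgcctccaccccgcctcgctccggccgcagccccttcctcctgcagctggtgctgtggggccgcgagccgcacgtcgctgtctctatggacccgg
Epha4: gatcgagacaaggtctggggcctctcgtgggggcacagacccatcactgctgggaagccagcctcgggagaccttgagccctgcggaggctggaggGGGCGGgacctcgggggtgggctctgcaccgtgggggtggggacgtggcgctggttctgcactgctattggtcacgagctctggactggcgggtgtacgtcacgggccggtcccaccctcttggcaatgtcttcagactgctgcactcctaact
Unc5c: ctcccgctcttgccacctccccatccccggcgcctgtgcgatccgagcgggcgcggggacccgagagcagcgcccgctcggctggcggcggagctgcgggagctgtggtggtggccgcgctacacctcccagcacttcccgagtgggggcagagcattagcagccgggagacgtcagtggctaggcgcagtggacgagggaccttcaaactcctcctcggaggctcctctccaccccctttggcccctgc
The Sema4a window held 1 GC box, the Epha4 window 1 and the Sema4g window 3, none of them overlapping, and no match was found in the Unc5c window. Of all 32851 windows of this length, 32.7% held the GC box. The 4 windows are richer in G and C than most: 59.6% (Sema4a), 66% (Epha4), 73.2% (Sema4g) and 71.2% (Unc5c), beside a median of 52.4%. The shares over all windows, here and below, are thus not matched for base composition. On either strand, 0 of the 4 windows held GAAANNGAA (part of the interferon-response pattern, in 7.13% of all windows), TTCNNNGAA (a STAT pattern, 7.02%), TGANTCA (an AP-1 pattern, 6.75%) or GGGRNWYYCC (the NF-kappaB consensus, 3.90%). A looser NF-kappaB pattern, searched first, had matches in the Epha4 window and was then replaced by this consensus. The interferon-response pattern was also shortened, so the 0 holds for these final patterns only. Sema4a has 4 starts in the table and the one nearest the GENCODE M21 gene start is shown, and values per gene do not say which start was used.

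**Figure D3:**
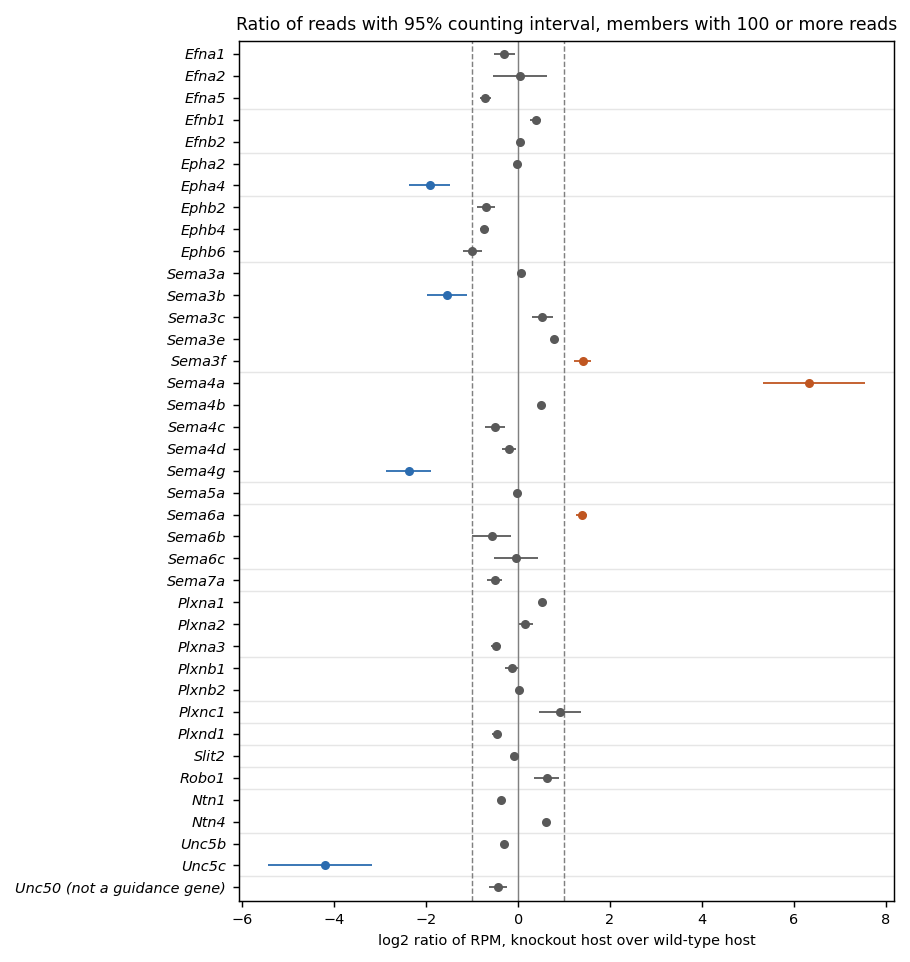
Log2 ratio of RPM (KO-host over WT-host library, horizontal axis) with its 95% counting interval for the 39 counted members, grouped by family; dashed lines mark 2-fold, and higher members are orange, lower ones blue. Sema4a (6.32) and Unc5c (-4.20) lie farthest from 0, and 4 of the 5 counted Eph receptors lie clearly to its left, with Epha2 beside it (-0.03, above 0 under median-ratio and trimmed-mean scaling).

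Of the 7 plexins, the semaphorin receptors, 0 passed 2-fold in either direction, beside the 8.49% and 11.4% of listed genes. Plxnb2, the receptor of several class 4 semaphorins, had 10483 and 9528 reads, a ratio of 1.01 (0.986 to 1.04). Plxnb1 had 957 and 779 reads (ratio 0.908). In class A, Plxna1 had 4107 and 5286 reads, a ratio of 1.44 (1.38 to 1.495), Plxna3 had 1765 and 1139 (ratio 0.719) and Plxna2 had 576 and 577 (ratio 1.12). Plxnd1, an endothelial receptor of Sema3e, had 1938 and 1258 reads, a ratio of 0.724 (0.674 to 0.777), so ligand and receptor lay on opposite sides of 1. Plxnc1 had 66 and 111 reads (ratio 1.88, 1.37 to 2.58). The neuropilins also parted. Nrp1, chosen after its values were seen, had 4426 and 1877 reads and was 2.11-fold lower, while Nrp2 had 14520 and 14028 reads (ratio 1.08).

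All 5 Eph receptors that were counted had a ratio below 1, where 54.4% of all listed genes counted did. However, Epha2, close to 1, moved above it when libraries were scaled by the median ratio or the trimmed mean of M values (TMM). Epha4 was the only one past 2-fold, beside 11.4% of listed genes 2-fold lower, and 30% of those with 100 to 299 reads, its range. Epha4 (chromosome 1 of mm39, 77343822 to 77491726, minus strand), which binds ephrins of both classes, had 226 and 54 reads and was 3.75-fold lower (2.78 to 5.15). Ephb6, a receptor without kinase activity, had 644 and 289 reads, 24.7 and 12.4 RPM, a ratio of 0.5003 (0.434 to 0.576) that just missed the limit. Ephb4, the receptor of ephrin-B2 on veins, had 2278 and 1224 reads, a ratio of 0.599 (0.558 to 0.642), and 108 of the 3624 listed genes with 3000 reads or more were as low. Ephb2 had 567.1 and 314.3 reads (ratio 0.618), recovered as fractions. Epha2, the most abundant Eph receptor here and widely expressed in epithelial tumours, had 3039 and 2678 reads, a ratio of 0.982 (0.932 to 1.04). The other 4 listed Eph receptors did not meet the filter. Epha7 had 134 reads in the WT-host library and was listed at 0 in the other, Epha3 had 71.7 and was listed at 0, Ephb3 had 81 and 8, and Epha1 had 41 and 34.

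Of the 8 listed ephrins 5 were counted, and 0 passed 2-fold, beside 8.49% of listed genes higher and 11.4% lower. In the ephrin-A class, whose members are tethered by a lipid anchor, Efna5 had 1612 and 878 reads, a ratio of 0.607 (0.559 to 0.660), Efna1 had 377 and 275 (ratio 0.813, 0.694 to 0.953) and Efna2 had 52 and 48 (ratio 1.03). Efna3 and Efna4 had 80 and 77 reads in the WT-host library and were listed at 0 in the KO-host library. Efna1, Efna3 and Efna4 lie close together on chromosome 3 of mm39, between 89179040 and 89245336, on the minus strand. The transmembrane ephrin-B class was led by Efnb2, with 6676 and 6193 reads and a ratio of 1.03 (0.999 to 1.07). Efnb1 had 935 and 1090 reads, a ratio of 1.30 (1.19 to 1.42), and Efnb3 had 31 reads and was listed at 0. Efnb2 was thus close to a ratio of 1, while its receptor Ephb4 lay well below it.

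Of the counted Slit, Robo, netrin and Unc5 genes, Unc5c was lower by 2-fold or more, beside 11.4% of listed genes, and 0 were higher, beside 8.49%. In the read range of Unc5c, 100 to 299 reads, 30% of listed genes were 2-fold lower. Slit3, under the read filter, was listed at 0 in the WT-host library and had 40 reads in the KO-host library. Slit2 had 17301 and 14597 reads, a ratio of 0.941 (0.920 to 0.962). Robo1, the only Robo gene listed, had 190 and 262 reads (ratio 1.54, 1.27 to 1.86). Ntn1 had 9960 and 6863 reads, a ratio of 0.768 (0.745 to 0.792), and Ntn4 had 5478 and 7488, a ratio of 1.52 (1.47 to 1.58). Among listed genes with 3000 reads or more, 547 were as low as Ntn1 and 204 as high as Ntn4. Unc5b, a netrin receptor that can trigger cell death when unbound, had 6565 and 4738 reads (ratio 0.805, 0.775 to 0.835). Unc5c, its relative (chromosome 3 of mm39, 141170977 to 141540686, plus strand), had 164 and 8 reads and was 18.4-fold lower (9.11 to 43.3), at 0.329 and 0.0179 RPM per kilobase, far below Unc5b. Over all counted genes, 128 had a ratio as low. Unc50 had 509 and 336 reads (ratio 0.736).

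Sums over the listed members of a family, which the most abundant member dominates, differed most for the class 6 semaphorins and the EphB receptors among families of more than 1 member. Class 6 semaphorins summed to 42.8 RPM in the WT-host and 96.0 in the KO-host library, of which Sema6a made 79.1% and 92.1%. EphB receptors summed to 136.9 and 78.5 RPM (ratio 0.573, 0.541 to 0.606). Ephrin-A ligands were at 84.3 and 51.4 RPM (ratio 0.609), and EphA receptors at 134.7 and 118.3. Class 3 and class 4 semaphorins were at ratios of 1.36 and 1.32, class B plexins at 1.005 and netrins at 1.04, where opposite ratios of Ntn1 and Ntn4 nearly cancel. All 28 ligands together gave 3133 and 3320 RPM (ratio 1.06), and all 19 receptors gave a ratio of 0.931.

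**Figure D4:**
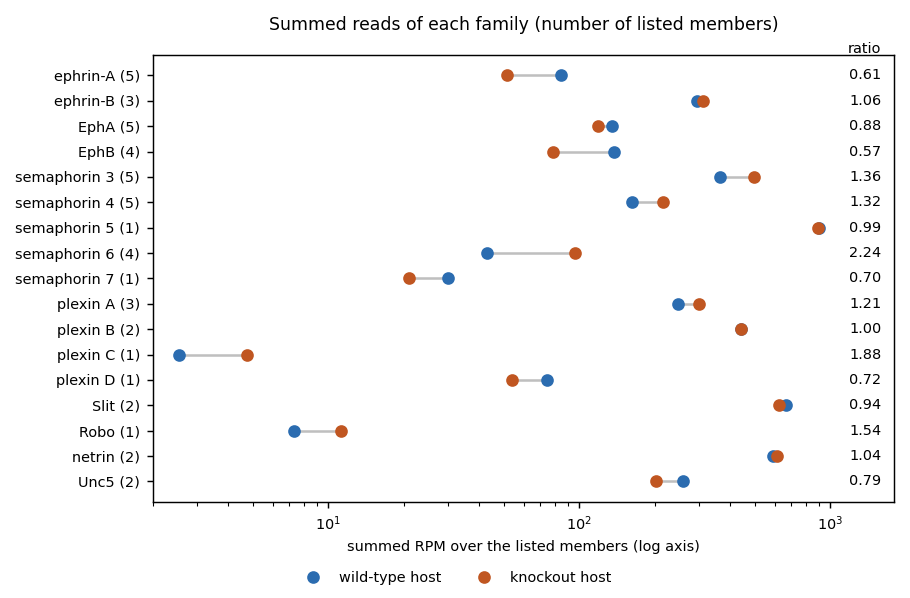
Summed RPM of the listed members of each family on a log axis in the WT-host library (blue) and the KO-host library (orange), with the ratio of the sums at the right and the number of members in parentheses. The sums of class 5 semaphorins, class B plexins, Slits and netrins nearly coincide, and class 6 semaphorins (2.24) and EphB receptors (0.57) lie apart.

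In all, 6 members were listed at 0 in a library. Slit3 was at 0 in the WT-host library, where 4.02% of listed genes were, and Efna3, Efna4, Efnb3, Epha3 and Epha7 were at 0 in the KO-host library, where 3.25% were. A listed 0 can be a failed estimate in this table, so no ratio is given. Of 10818 listed genes with 100 reads or more, 85 were listed at 0 in the KO-host library, Epha7 among them. The gene models of 19 members overlap another gene on the opposite strand in GENCODE M21, such as Epha1 with Zyx and Ephb4 with Zan. Unc5c, a called member, does so with Gm15688 and Gm15689. Those of 15 members overlap another on the same strand, among them the called Sema4a (Mir7011), Epha4 (Mir6352) and Unc5c (Gm43826). No source used here states the strand handling, so reads in opposite-strand overlaps cannot be assigned. Strand would not separate those on the same strand. Another 20 protein-coding genes of that annotation match the rule and were not analysed here, among them Epha5, Plxna4, Robo2, Robo4, Sema3g and Unc5a.

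Partners of these pathways, listed from general knowledge, were at similar levels in both libraries as a set. Of 144 partner genes 113 were counted; 6 were higher and 6 were lower, beside the 8.49% and 11.4% of all listed genes, and their median log2 ratio was -0.01. Under median-ratio and TMM scaling the split was 7 higher and 4 lower. Among 24 coreceptors and binding partners, 2 were higher and 2 lower. Cd72, a receptor of Sema4d on B cells, had 17.8 and 131.8 reads, Flrt3, a binding partner of Robo and Unc5 receptors, had 364 and 812, and Tmeff1 had 376 and 73. Itgb1 (ratio 1.02) and Itgav (0.888) held the most reads. Among 33 small GTPases and regulators, 3 were higher: Chn1, a Rac-inactivating protein used by Eph receptors, with 1 and 104 reads (ratio 116, 20.4 to 4623), Rnd1, a GTPase that binds plexins, with 72 and 493.5, and Rnd2 with 93 and 240. The only lower one was Arhgef15, an exchange factor linked to Eph receptors and chosen after its values were seen, 2.05-fold lower. Rhoa and Cdc42, with the most reads, had ratios of 1.14 and 0.967.

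Among 36 adaptors, kinases and cytoskeletal proteins 1 was higher and 2 were lower, beside 8.49% and 11.4% of all listed genes. Fes, a kinase that carries Sema3a signals, had 5 and 110 reads. Ablim1, an actin-binding protein, had 474 and 172 reads, and Pak1, a Rac effector, had 2604 and 1152 (2.03-fold lower). Dpysl3 and Cfl1, with the most reads of this list, had ratios of 0.745 and 0.958. Among 20 proteases, phosphatases and trafficking genes, Mmp2 alone passed 2-fold, with 2028 and 562.6 reads (3.23-fold lower). Psen2 had a ratio of 0.508 and Ptprd of 0.618. Ndfip1 was at 1.04 and Mmp14 at 1.31.

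**Figure D5:**
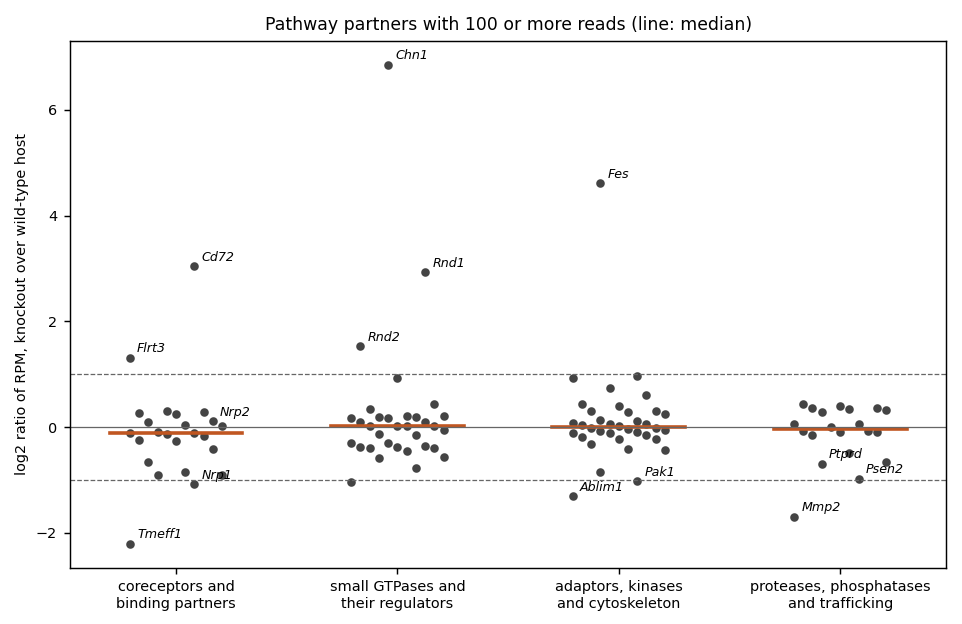
Log2 ratio of RPM (KO-host over WT-host library, vertical axis) of the 113 counted pathway partners in 4 lists; each point is a gene, the orange line is the list's median and dashed lines mark 2-fold. The medians lie between -0.11 and 0.02, and Chn1 (6.86), Fes (4.62) and Tmeff1 (-2.21) lie far from them.

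Cell type markers differed beside these genes. Their calls stand beside 8.49% of listed genes higher and 11.4% lower. Mesenchymal tumour genes (11 of 11 listed) summed to 9178 and 8111 RPM, of which Fn1 made 4744 and 4070 and Vim 3170 and 2907. The high sum therefore does not hold for each gene. Snai1 was at 15.3 and 15.1 RPM and Snai2 at 18.8 and 15.1. Twist2 was 2.08-fold lower, and the other 10 lay between. Of 19 leukocyte markers 13 were listed, at 165.3 and 178.2 RPM, of which Lyz2 made 134.4 and 148.4. Of the 7 counted, Fcer1g was higher with 31 and 70 reads, Itgam was 8.50-fold lower with 237 and 25, and 5 lay between. Listed under the read filter, Cd8a had 6.75 and 53 reads, Ms4a1 2 and 42.8 and Cd4 19 and 1. Ptprc, which encodes CD45, had 46 and 64 reads, and markers such as Cd3e, Nkg7 and Itgax have no row. Pericyte and smooth muscle markers (8 of 13 listed) summed to 428.1 and 102.2 RPM, with Pdgfrb at 9206 and 1691 reads, Notch3 at 950 and 188, Gja4 at 1 and 127 and Cspg4 listed at 0 in the KO-host library. Fibroblast markers (12 of 14) summed to 3184 and 1671 RPM. Of the 9 counted, 0 were higher and 4 were lower, beside 11.4% of listed genes lower, and 5 lay between. Among the lower ones, Col1a1 had 16111 and 2059 reads and Col3a1 29627 and 11076. Pdgfra, among those between, had 5834 and 5056 reads.

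Endothelial markers (7 of 19, with no row for Kdr, Tek or Tie1) summed to 56.0 and 32.5 RPM, with Pecam1 at 129 and 128 reads, Cdh5 at 1 and 146, Flt1 at 735 and 344 and Plvap at 348 and 58. Lymphatic markers (2 of 6) summed to 0.192 and 18.01 RPM, with Pdpn at 5 and 296 reads and Prox1 listed at 0 in the WT-host library. Schwann and neural markers (6 of 12) summed to 50.1 and 55.9 RPM. Epithelial markers (7 of 11) summed to 207.4 and 336.2 RPM. Of the 7, 4 were 2-fold higher, beside 8.49% of listed genes. Among the 4, Epcam had 55 and 151 reads. The part of vessel, stromal or epithelial cells in the differences of Ephb4, Plxnd1, Nrp1, Sema3f, Sema6a and the other members was not tested.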

How the data were processed

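Total RNA of 2 libraries was depleted of ribosomal RNA and built into PrepX libraries, per the labels' protocols. STAR 2.7.8a, Partek and build mm39 are named in the submitters' processing notes; not given in the sources used here were which tool did which step, the annotation release, strand handling and the counting of multi-mapping reads. The authors deposited log2 values of FPKM + 1, 1 column per library, with the gene's span as length.

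With Python 3.11.15, each log2 value was turned back into FPKM, multiplied by the span and divided by the step of low values, which gave reads. Under 1000 reads, 84.5% (WT host) and 83.1% (KO host) of values above 0 were whole within 0.1 read. The lowest sum of a listed gene was 10 reads. Exon lengths were unions of exons from GENCODE M21, matched by gene ID. The read recovery was tried on simulated whole counts made with the same conversion, so its success was largely fixed in advance. It does not cover values recovered as fractions or listed zeros that are failed estimates. No test, p-value or standard error was computed.

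Members, lists and rules were chosen with earlier results of these data known. Named were members past 2-fold, the 2 with the most reads in each family, and members listed at 0 in 1 library with 100 reads or more, plus Mtdh and, from each partner list, the 3 largest ratios and the 2 with the most reads; other named genes were chosen after their values were seen. Alternatives covered scaling, read filter, fold limit and added constant.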

Additional observations from a re-analysis of the deposited data

How the results depend on the processing

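No paired analysis was possible because each group has 1 library, and for the same reason no library could be left out. Under median-ratio and TMM scaling the size of the KO-host library relative to the WT-host library fell by 0.05 on the log2 scale, which raised every log2 ratio by as much; the 3 higher and 4 lower members were the same genes, and of 33 named members with a ratio Epha2 and Sema5a alone crossed 1. The class 5 semaphorin sum, which is Sema5a by itself, crossed 1 too. The read filter decided the lower members. With 300 reads or more 0 of 31 counted members were lower, and with 1000 or more (chosen after seeing the data) 0 of 23. At 1000 reads the 2 higher members were Sema3f and Sema6a. With 30 reads, or no filter, Ephb3 joined the lower members. At 300 and 1000 reads, 523 and 188 listed genes were higher, 777 and 259 were lower, and 3 and 1 partner genes were higher, with 3 partner genes lower at 1000 reads. By read range, 19.9% of listed genes with 300 to 999 reads were lower, 7.26% with 1000 to 2999 and 1.16% with 3000 or more. The shares higher were 12.9%, 4.05% and 1.85%. At 1.5-fold, 7 of 39 counted members were higher and 8 lower, beside 1683 and 2224 of 10675 listed genes. Of 113 partner genes, 11 were higher and 15 lower at 1.5-fold. At 3-fold, 1 of 39 members (Sema4a) was higher and 3 (Epha4, Sema4g and Unc5c) were lower. Of 10675 listed genes, 421 were higher and 597 lower at 3-fold. Of the partner genes, 4 were higher and 2 lower at 3-fold. With whole reads only, the called members were the same genes. On the deposited scale 0 members were called with 0.1 or 5 added to FPKM or with no filter on the mean. With 5 added this was fixed in advance, because a larger constant shrinks differences. With 0.1 added, the filter on the mean still left out the members called by reads. The alternatives could not change the sign of a called ratio. The scalings moved log2 ratios by 0.05 only, and the read filters and fold limits left each ratio as it was. Ratios are least certain for the members under 300 reads, where those of all listed genes spread most. The cause of that spread was not tested.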
